A study of Mus musculus with 6 samples.

Results

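The genes that flank Mutyh on mouse chromosome 4 were compared between the livers of 3 MUTYH-null and 3 wild-type mice. The members were all measured genes that lie wholly between positions 107233514 and 123298925 of chromosome 4 (GRCm38), a stretch of 16.07 Mb that reaches 9.57 Mb from Mutyh to lower and 6.48 Mb to higher coordinates. Of 201 measured genes in this stretch, 19 were left out by the rule, which removed Mutyh itself, Urod, Cpt2, Orc1, Prdx1, Uqcrh, Rad54l, Cdc20 and Kif2c where measured and the Cyp, Col, Cldn and Nduf families. This left 182 members of the 22180 genes measured, 87 at lower and 95 at higher coordinates than Mutyh, and 170 of them code for proteins. The rule chose members by position and gene name, and the choice was made with earlier results of these data known. Within the rule, measured values served only to pick the probe set of each gene, that with the highest mean. The gene table lists 402 genes in the stretch, so many, most of them non-coding, had no probe set of their own here.

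All 6 mice were males of the C57BL/6 background and were fed a high-fat, high-carbohydrate diet enriched in iron (HFHC + high-iron diet) from the age of 8 weeks on, over 9 months. The MUTYH-null group (Mutyh -/-, diagnosis HCC) had developed liver tumors, and its RNA was taken from non-tumorous liver according to the methods. The wild-type group (Mutyh +/+, without HCC) had no liver tumors, so that genotype and tumors cannot be told apart. The null allele is present in all cells of the animal, and the line came from 10 or more generations of crossing to C57BL/6. RNA of 1 mouse was measured on 1 array, with no pooling, and nothing in the labels says whether the mice were littermates. The probe set of Mutyh itself was 4.43, 4.65 and 4.34 log2 in the mice labelled MUTYH-null (3003, 3007 and 3008) and 4.44, 4.36 and 4.48 log2 in those labelled wild-type (1025, 1027 and 1001). It was not lower in the former (difference 0.05 log2, standard error 0.10), and the groups overlapped. Its group means, 4.47 log2 in MUTYH-null and 4.42 log2 in wild-type, were below the median probe set value of 4.52 log2. Whether the probe set lies in the disrupted part of the gene is not stated in the sources at hand. These arrays therefore do not check the genotype, and both groups are named by their labels.

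MUTYH is a DNA glycosylase that removes adenine paired with oxidized guanine. A targeted allele that is moved into another strain by crossing is inherited together with the stretch of chromosome on either side of it, and recombination shortens that stretch at random from generation to generation. Genes close to a targeted locus are therefore commonly examined in knockout mice. For the cells in which this allele was made, the sources used here give no strain, and the DNA of the stretch was not analysed here.

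Mutyh starts 175 bases from Toe1, a gene for a 3'-end RNA exonuclease that is read in the other direction. Promoter sequences are those of RefSeq (GRCm38.p6) from 250 bases before to 50 after the start of a gene, and 160 of the 182 members had one or more. Capitals mark short motifs that were searched on both strands, namely TATAAA, known as the TATA box, CCAAT, bound by the factor NF-Y, GGGCGG, bound by factors of the Sp family, CACGTG, known as the E-box, and AGGTCA, the core element of nuclear receptors. No motif overlapped another in the sequences shown. The promoter of Mutyh (chr4:116807484-116807783, plus strand) is shown as the place from which all distances were counted. Those of Dio1 (chr4:107307119-107307418, minus strand), Echdc2 (chr4:108165187-108165486, plus strand) and Armh1 (chr4:117251868-117252167, minus strand) are shown as examples from 6 members that were called whichever mouse was left out, the others being Guca2b, Olfr1328 and St3gal3. Armh1, Guca2b and Olfr1328 had signals below the median probe set value of 4.52 log2 in both groups.
Mutyh: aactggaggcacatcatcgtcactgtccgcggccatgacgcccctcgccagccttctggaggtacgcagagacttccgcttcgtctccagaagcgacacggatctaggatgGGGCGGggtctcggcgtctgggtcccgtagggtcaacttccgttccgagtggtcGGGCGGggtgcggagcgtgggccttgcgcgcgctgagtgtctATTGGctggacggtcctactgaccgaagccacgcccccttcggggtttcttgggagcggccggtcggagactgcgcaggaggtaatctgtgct
Dio1: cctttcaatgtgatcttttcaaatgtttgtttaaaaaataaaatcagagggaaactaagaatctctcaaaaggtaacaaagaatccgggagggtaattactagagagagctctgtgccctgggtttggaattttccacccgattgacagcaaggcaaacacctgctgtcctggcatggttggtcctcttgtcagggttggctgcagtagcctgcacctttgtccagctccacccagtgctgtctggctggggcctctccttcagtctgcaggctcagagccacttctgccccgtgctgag
Echdc2: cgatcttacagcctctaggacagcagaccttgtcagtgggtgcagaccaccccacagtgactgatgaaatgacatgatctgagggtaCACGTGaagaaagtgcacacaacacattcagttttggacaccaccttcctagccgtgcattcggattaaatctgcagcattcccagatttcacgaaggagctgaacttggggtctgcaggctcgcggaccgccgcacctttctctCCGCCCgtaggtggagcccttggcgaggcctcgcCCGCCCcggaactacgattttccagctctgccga
Armh1: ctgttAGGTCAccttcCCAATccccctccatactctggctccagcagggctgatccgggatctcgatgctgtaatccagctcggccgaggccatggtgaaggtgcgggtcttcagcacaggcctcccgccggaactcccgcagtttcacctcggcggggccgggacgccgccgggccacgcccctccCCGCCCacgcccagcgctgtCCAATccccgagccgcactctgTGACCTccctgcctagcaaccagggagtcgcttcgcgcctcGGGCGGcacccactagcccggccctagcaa
GGGCGG occurred 2 times each in the promoters of Mutyh, Echdc2 and Armh1, while that of Dio1 held none of the motifs. The GC content was 65.0% for Mutyh, 49.7% for Dio1, 56.0% for Echdc2 and 68.7% for Armh1. GGGCGG was found in 49.0% of the 198 promoters of members and in 35.7% of all 32851 promoters, and the median GC content of these promoters was 56.2% and 52.7%. The shares of the other motifs, again in members and in all promoters, were 13.6% and 13.6% for TATAAA, 36.9% and 37.4% for CCAAT, 7.07% and 7.15% for CACGTG, and 14.6% and 16.3% for AGGTCA. A match of letters describes the sequence and was not measured as a binding site.

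Expression was given as log2 RMA values, differences are MUTYH-null minus wild-type, and a gene is called higher or lower where its unadjusted p in limma was under 0.05. Of the 182 members, 20 were called, which is 11% of them, against 5.09% of all genes tested. In the higher direction 11 members were called (2.29% of all genes), and 9 in the lower direction (2.8% of all genes). No member and no other gene passed a Benjamini-Hochberg adjusted p of 0.05 over the 22180 genes (0% of all genes), the smallest limma adjusted p being 0.963. The 3 mice of one group all lay on one side of the 3 of the other in 29 members, or 15.9% (9.53% of all genes), with MUTYH-null higher in 16 (4.23% of all genes) and lower in 13 (5.29% of all genes). On the rest of chromosome 4, 66 of 1069 genes were called, which is 6.17%, and 110 did not overlap, which is 10.3%. Whether the share of the members differs from these was not tested.

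Members were called on both sides of the median signal. Among the 114 members with at least 1 group mean over 4.52 log2, the median probe set value, 12 were called, or 10.5% (3.76% of all genes above that signal). Among the 68 members at or below it, 8 were called, or 11.8% (7.03% of all such genes). The median difference over the members was -0.02 log2, against -0.01 log2 over all genes, and the median size of a difference was 0.093 log2 against 0.084 log2. The individual differences ranged from -0.56 log2 for Dio1 to 0.52 log2 for Guca2b. Without mouse 3003 or without mouse 1001, 14 members were called, or 7.69%, when 4.94% and 4.68% of all genes were called. Without mouse 3008, 7 members were called higher, or 3.85% (2.15% of all genes), and without mouse 1001, 5 members, or 2.75% (2.05% of all genes).

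The plot of differences by distance shows where the called members lay. More than 7 Mb from Mutyh at lower coordinates, 6 of 37 members were called, or 16.2% (5.09% of all genes), 4 lower and 2 higher. Between 2 and 7 Mb on that side none of 20 was called, and the span of 5.52 Mb from Eps15 to Foxd2 held 26 measured members without a call. Signals also differed, as those 20 members had a median level of 2.49 log2, with 4 above the median signal. The 37 members farther out had 6.08 log2, with 32 above it. Over all genes, 7.03% of those at or below the median signal were called, and 3.76% of those above it. The part of signal in where calls lay was not tested. From 0.5 to 2 Mb on that side 1 of 22 was called, or 4.55%, and within 0.5 Mb none of 8, of which 7 had a negative difference. At higher coordinates, 2 of 10 members within 0.5 Mb were called (20%), 3 of 28 from 0.5 to 2 Mb (10.7%), and 8 of 57 from 2 to 7 Mb (14%). Of those 10 members within 0.5 Mb, 8 had a positive difference. Among the 8 called from 2 to 7 Mb, 6 were higher and 2 lower. Of all 87 members at lower coordinates 7 were called, or 8.05%, 2 higher and 5 lower. Of all 95 at higher coordinates 13 were called, or 13.7%, 9 higher and 4 lower. Of the called members at higher coordinates, 10 lay from 1 to 5 Mb away. The limits of these bins were set after the values had been seen. On both sides together, 2 of 18 members were called within 0.5 Mb, or 11.1%, and 2 of 33 within 1 Mb, or 6.06%. Of the 18, 9 had a positive and 9 a negative difference, and of all genes 47.5% had a positive one. Across the 182 members, the size of the difference and the distance from Mutyh had a Spearman correlation of 0.06 and a Pearson correlation of 0.04. For the signed difference and position along the chromosome they were 0.12 and 0.13. The signed differences of successive members had a Spearman correlation of 0.02 (n = 181). The points share the same 6 arrays, and these correlations are descriptions across genes.

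**Figure D1:**
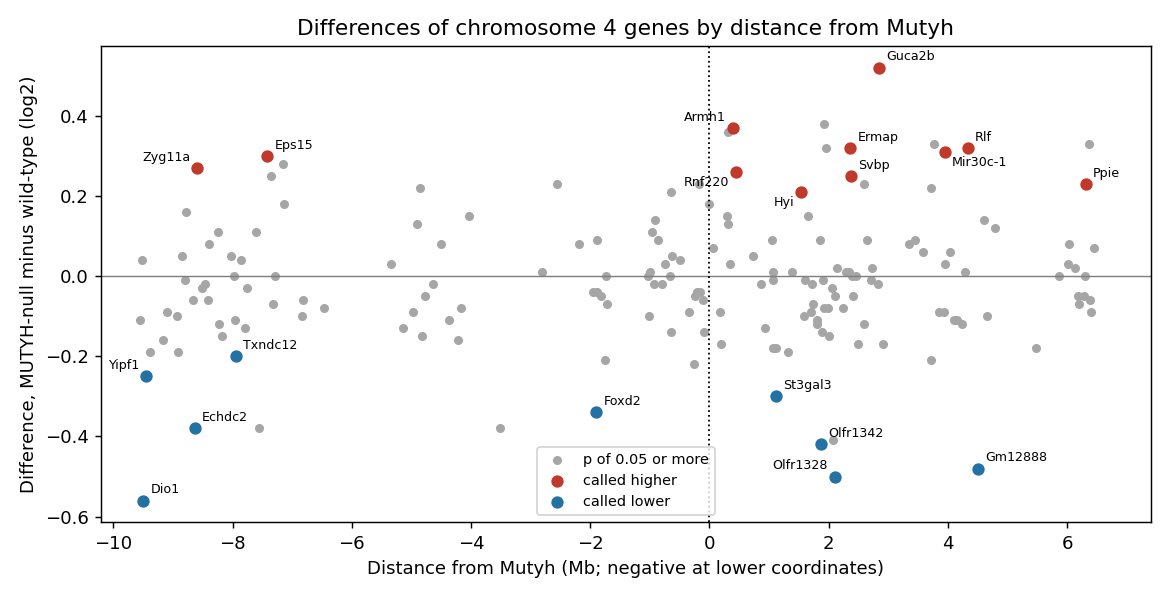
Difference between MUTYH-null and wild-type livers (log2, vertical axis) of each of the 182 members against its distance from Mutyh in Mb (horizontal axis, negative at lower coordinates). Red points are the 11 members called higher and blue points the 9 called lower. The lowest point is Dio1 at -0.56 log2, 9.50 Mb from Mutyh. The 5.52 Mb between Eps15 and Foxd2 hold no called member, a span that includes the 11 Skint genes of low signal.

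**Figure D2:**
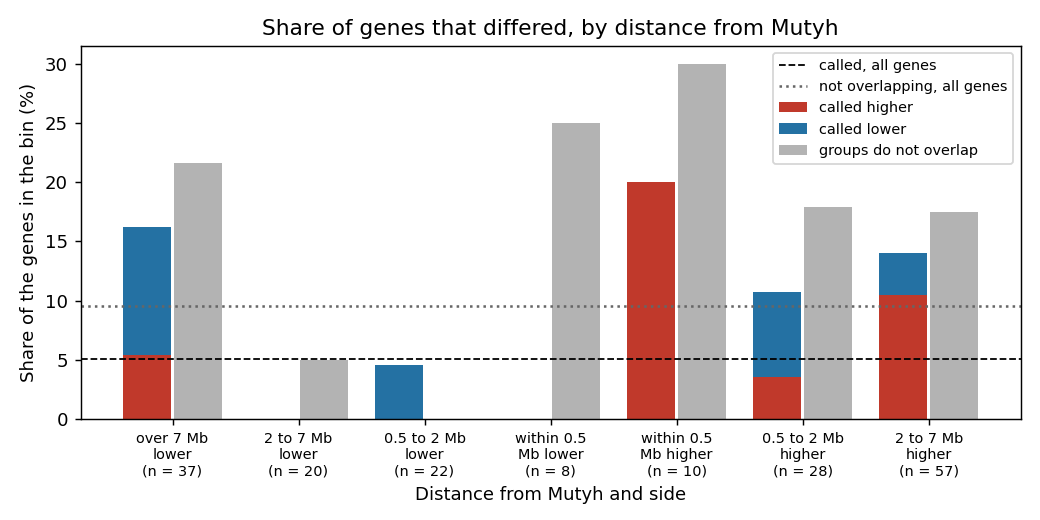
Share of members (percent, vertical axis) called higher (red) or lower (blue) and share whose groups do not overlap (gray), by distance and side (horizontal axis, with the number of members). The dashed line is the share of all genes called, 5.09%, and the dotted line the share of all genes whose groups do not overlap, 9.53%. The bins hold 8 to 57 members each, and the tallest bars are those within 0.5 Mb at higher coordinates, where 2 of 10 were called.

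The members next to Mutyh showed small differences of both signs. Hpdl, a gene related to 4-hydroxyphenylpyruvate dioxygenase and the nearest member at higher coordinates, was 3.78, 4.04 and 3.70 log2 in the MUTYH-null animals 3003, 3007 and 3008 (the nulls, in this order throughout), against 3.66, 3.82 and 3.51 log2 in the wild-type animals 1025, 1027 and 1001. The groups overlapped, with a difference of 0.18 log2 (standard error 0.13, limma adjusted p = 0.979). Of the next members on that side, Zswim5 differed by 0.07 log2, the ubiquitin ligase gene Hectd3 by -0.09 log2 and Eif2b3, for a subunit of the exchange factor eIF2B, by -0.17 log2. None of these was called. Btbd19, at 5.15, 5.06 and 5.08 log2 against 5.0, 4.90 and 4.95 log2, did not overlap, with a difference of 0.15 log2 (standard error 0.08, unadjusted limma p = 0.115, exact permutation p = 0.1). Tctex1d4, a dynein light chain gene that overlaps Btbd19, had 0.13 log2 and a spread of 0.28 log2 (SD, n = 3) in each group.

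On the other side, Ccdc163 and the gene of cobalamin metabolism Mmachc, which start 210 bases apart in opposite directions, had -0.14 and -0.06 log2. Akr1a1, for an aldehyde reductase of ascorbate synthesis, was 9.78, 9.68 and 9.86 log2 against 9.86, 9.77 and 9.83 log2, a difference of -0.04 log2 (standard error 0.09). Its sign turned without 1 of the mice, with a largest value that rounds to 0.00 log2. Nasp, which encodes a histone chaperone, was 5.48, 5.67 and 5.48 log2 in the nulls, against 5.36, 5.21 and 5.38 log2 in wild-types. Its groups did not overlap, and the difference of 0.23 log2 (standard error 0.10) had an unadjusted limma p of 0.0503, just above the threshold. Gpbp1l1 was 7.55, 7.53 and 7.47 log2 against 7.56 log2 in each wild-type mouse, so that its groups did not overlap at a difference of -0.04 log2. Tmem69 had -0.05 log2, and its sign turned without 2 of the mice, up to 0.02 log2.

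Both called members within 0.5 Mb lay at higher coordinates and were called higher. Armh1, 394 kb from Mutyh and below the median signal, was 4.13, 4.14 and 4.03 log2 in the nulls, against 3.72, 3.60 and 3.87 log2 in wild-types. It therefore has no value in the setting with dim genes left out. Every MUTYH-null mouse lay above every wild-type mouse, with a difference of 0.37 log2, or 1.29-fold (standard error 0.10, unadjusted limma p = 0.00579, exact permutation test, two-sided p = 0.1). For 3 mice against 3, 0.1 is the smallest p that this exact test can give. The promoter of Armh1, shown above, starts 34 bases from that of Tmem53, and a probe set that names both genes differed by -0.01 log2 (standard error 0.09). Rnf220, a ubiquitin ligase gene, was 5.81, 5.65 and 5.79 log2 against 5.40, 5.59 and 5.49 log2, a difference of 0.26 log2 (standard error 0.10). Its second probe set had -0.08 log2, and on the mean of both the difference was 0.09 log2 and no longer called. The call of Rnf220 also ended without mouse 3003 (0.23 log2), 3008 (0.23 log2), 1025 (0.21 log2) or 1001 (0.26 log2). Plk3, a stress-responsive kinase gene 309 kb away, had 9.03, 8.50 and 8.80 log2 against 8.46, 8.69 and 8.09 log2. The groups overlapped at a difference of 0.36 log2 (standard error 0.18).

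**Figure D3:**
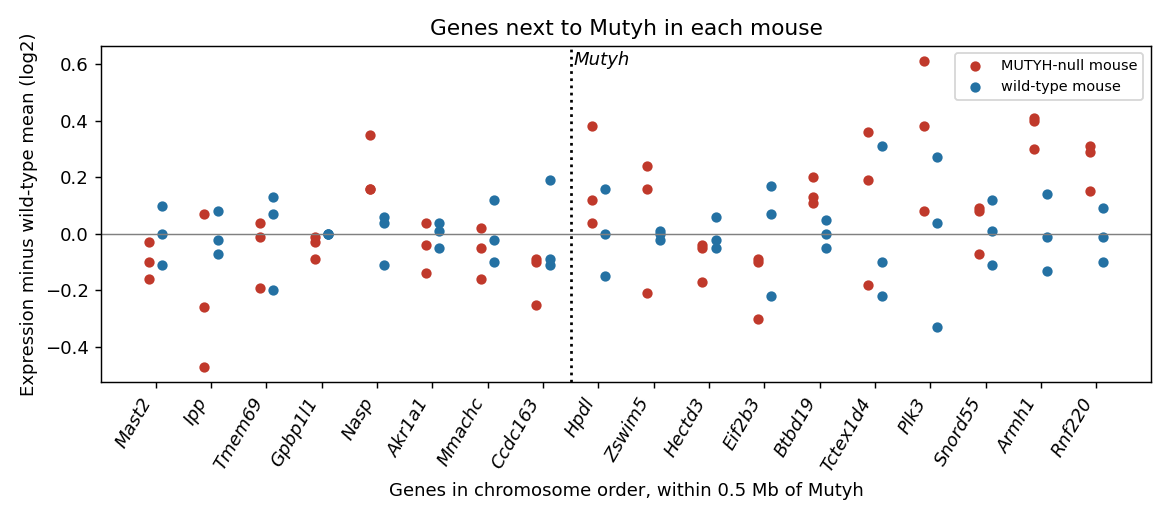
Expression of the 18 members within 0.5 Mb of Mutyh in each of the 6 mice, minus the mean of the wild-type mice (log2, vertical axis), in chromosome order (horizontal axis). Red points are the 3 MUTYH-null mice and blue points the 3 wild-type mice, and the dotted line marks the place of Mutyh. Armh1 and Rnf220, at the right, are the called members, and Nasp, Btbd19 and Gpbp1l1 are the others whose groups do not overlap.

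Toe1 was measured only by a probe set that it shares with Tesk2. That probe set was 5.41, 5.65 and 5.25 log2 in the nulls, against 5.46, 5.54 and 5.49 log2 in wild-types, a difference of -0.06 log2 (standard error 0.12). The groups overlapped at this probe set. The stretch has 22 pairs of genes whose starts lie within 1 kb on opposite strands, and both genes were members in 7 of them. In 3 of these 7 the unrounded differences had the same sign, in 1 of them 1 gene was called, and in none both. The called one was Txndc12, for a thioredoxin-like protein of the endoplasmic reticulum, at -0.20 log2, beside Btf3l4, which differed by under 0.01 log2. Ppcs, of coenzyme A synthesis, had -0.12 log2 and its partner Zmynd12 had 0.23 log2, while Cfap57 and Ebna1bp2 had -0.07 and -0.12 log2.

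At the lower end of the stretch lay Dio1 and Echdc2, with the largest differences among members above the median signal. Dio1, for the liver deiodinase that makes and clears active thyroid hormone, was 9.23, 9.22 and 9.70 log2 in the nulls, against 10.10, 9.91 and 9.82 log2 in wild-types. All 3 MUTYH-null mice lay below the wild-type mice, 2 of them close together and mouse 3008 nearer to the wild-type group. The means were 9.39 ± 0.27 log2 and 9.95 ± 0.14 log2 (SD, n = 3 each), 1.48-fold lower, with a difference of -0.56 log2 (standard error 0.15, unadjusted limma p = 0.00536, exact permutation test, two-sided p = 0.1). When any mouse was left out, the value was between -0.72 and -0.48 log2 and was called each time. Its neighbor Yipf1, for a Golgi membrane protein, was 6.46, 6.61 and 6.64 log2 against 6.77, 6.82 and 6.87 log2, a difference of -0.25 log2. A second probe set of Yipf1 with a lower signal differed by under 0.01 log2, and on the mean of both the difference was -0.13 log2 and not called. The call also ended without mouse 3003 (-0.20 log2), 1027 (-0.25 log2) or 1001 (-0.23 log2).

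Echdc2, for a mitochondrial protein of the enoyl-CoA hydratase family, was 8.68, 8.99 and 8.82 log2 in the nulls, against 9.20, 9.30 and 9.14 log2 in wild-types. The groups were apart, with a difference of -0.38 log2 (standard error 0.11, 1.30-fold lower, unadjusted limma p = 0.00726, exact permutation p = 0.1), between -0.46 and -0.31 log2 with each mouse left out and called each time. The next gene in order, Zyg11a, of a family of ubiquitin ligase adaptors, went the other way, at 6.24, 6.27 and 6.05 log2 against 6.03, 5.95 and 5.79 log2, a difference of 0.27 log2. Its call ended without mouse 3003 (0.24 log2), 3007 (0.23 log2), 1027 (0.28 log2) or 1001 (0.20 log2). Between Dio1 and Echdc2, 9 members beside Yipf1 had no call, among them Lrp8, a lipoprotein receptor gene (-0.10 log2), and Scp2, the sterol carrier protein gene, which had 12.06 ± 0.05 log2 against 12.12 ± 0.04 log2 (SD, n = 3 each). Czib, at 5.78, 5.92 and 6.04 log2 against 6.19, 6.05 and 6.08 log2, and Cc2d1b, at 5.87, 5.77 and 5.74 log2 against 5.97, 5.94 and 5.92 log2, did not overlap but were not called.

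Txndc12 was 7.26, 7.25 and 7.26 log2 in the nulls, against 7.50, 7.45 and 7.42 log2 in wild-types. The spread within each group was small beside the difference of -0.20 log2, with its standard error of 0.08 after moderation over genes. Without any 1 mouse it stayed between -0.22 and -0.18 log2, and the p was then above 0.05 each time. Eps15, which encodes an adaptor of receptor endocytosis, was 8.10, 8.07 and 7.82 log2 against 7.72, 7.72 and 7.66 log2, a difference of 0.30 log2. It was not called without mouse 3003 (0.25 log2), 3007 (0.26 log2) or 1001 (0.28 log2).

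**Figure D4:**
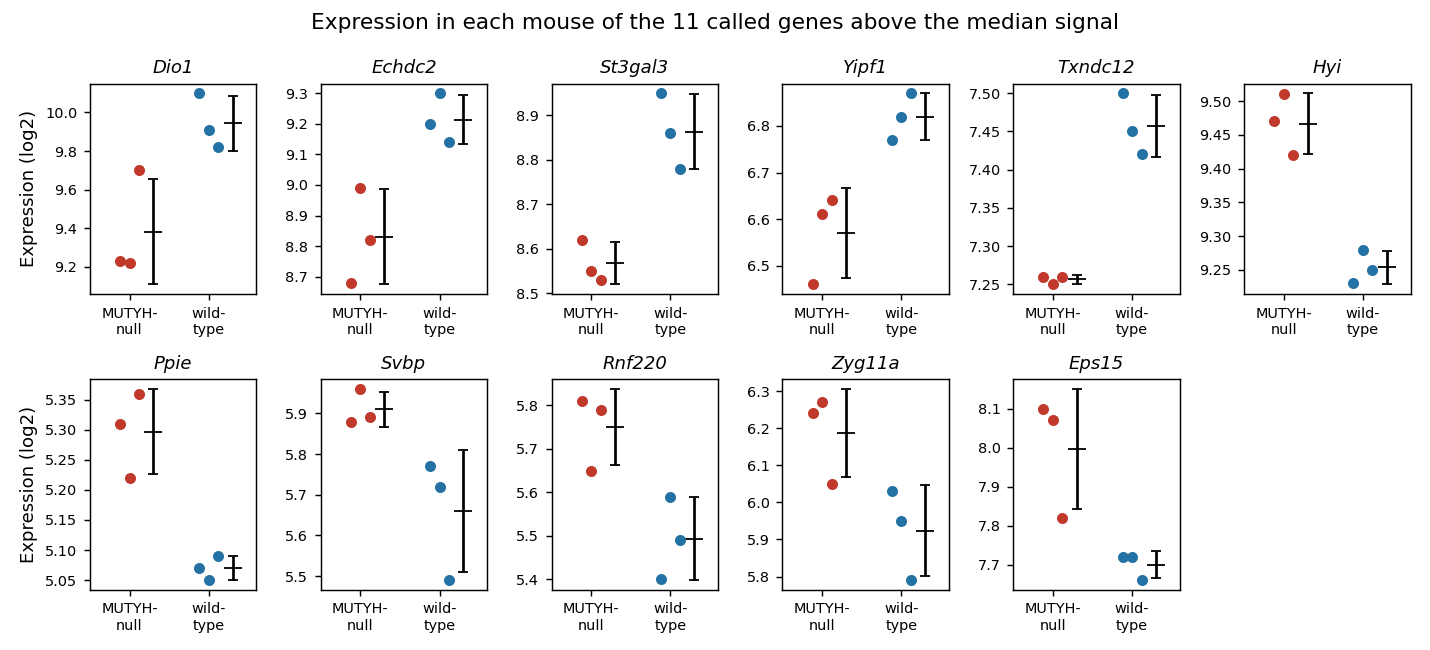
Expression (log2, vertical axes, with a range of its own for each gene) of the 11 called members above the median signal whose groups do not overlap. Red points are MUTYH-null mice and blue points wild-type mice, and the black marks beside them give the mean and SD of 3 mice. Dio1, Echdc2, St3gal3, Yipf1 and Txndc12 are lower in all 3 MUTYH-null mice, and Hyi, Ppie, Svbp, Rnf220, Zyg11a and Eps15 are higher in all 3.

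The members were also read by their roles. Of 22 members in liver and lipid metabolism, 13.6% were called (5.09% of all genes), with a median difference of -0.01 log2. Of them 2 were called lower (Dio1 and Echdc2) and 1 higher. The higher one was Hyi, named for hydroxypyruvate isomerase and listed as a transcribed pseudogene in the gene table, at 9.47, 9.51 and 9.42 log2 against 9.23, 9.28 and 9.25 log2. Its groups were apart, with a difference of 0.21 log2 (standard error 0.08, unadjusted limma p = 0.0331, exact permutation p = 0.1). The p was above 0.05 without mouse 3003 (0.21 log2), 3007 (0.19 log2), 1025 (0.20 log2), 1027 (0.23 log2) or 1001 (0.21 log2). Faah, for the hydrolase of fatty acid amides, had -0.02 log2, Slc2a1, a glucose transporter gene, 0.01 log2, and Mfsd2a, a lysophospholipid transporter gene, 10.88 ± 0.02 log2 against 10.87 ± 0.11 log2 (SD, n = 3 each).

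Of 16 members in glycosylation, secretion and membrane traffic, 2 were called lower and 2 higher, or 25% (5.09% of all genes). The median was -0.06 log2. St3gal3, for an enzyme that adds sialic acid to sugar chains, was 8.62, 8.55 and 8.53 log2 in the nulls, against 8.95, 8.86 and 8.78 log2 in wild-types. The groups did not overlap, with a difference of -0.30 log2, 1.23-fold lower (standard error 0.09, unadjusted limma p = 0.0103, exact permutation p = 0.1), from -0.34 to -0.26 log2 with each mouse left out and called each time. Svbp, counted in this group although its product partners the tubulin carboxypeptidases, was 5.88, 5.96 and 5.89 log2 against 5.77, 5.72 and 5.49 log2, a difference of 0.25 log2. Its call ended without mouse 3003 (0.27 log2), 3007 (0.23 log2), 3008 (0.26 log2) or 1001 (0.17 log2). Eps15 and Yipf1, given above, complete the called members of this group.

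Of 16 receptor, ligand and kinase genes, 2 were called higher and none lower, or 12.5% (5.09% of all genes). The median was 0.06 log2, and both called genes were below the median signal. Guca2b, for the intestinal peptide hormone uroguanylin, was 4.06, 4.11 and 4.42 log2 against 3.90, 3.71 and 3.43 log2. This was the largest positive difference of the 182 members, 0.52 log2 or 1.43-fold (standard error 0.15, unadjusted limma p = 0.00823, exact permutation p = 0.1), and it was called with each mouse left out, between 0.39 and 0.63 log2. Its neighbor Guca2a, for the related hormone guanylin, had -0.02 log2. Ermap, an erythroid membrane protein gene, was 4.26, 4.54 and 4.26 log2 against 4.08, 4.13 and 3.89 log2, a difference of 0.32 log2 that was not called without mouse 3007 (0.22 log2) or 1001 (0.25 log2). Tie1, a receptor kinase gene of endothelial cells, was 6.43, 6.28 and 6.28 log2 against 6.13, 6.18 and 6.24 log2, a difference of 0.15 log2 without a call. The summed level of 9 endothelial markers, Tie1 itself among them, was 2180 to 2450 on the linear scale in MUTYH-null mice. It was 2100 to 2280 in wild-type mice. This sum is not independent of Tie1, and the part of endothelial cells in the value of Tie1 was not tested.

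Of 24 members in transcription and chromatin, 2 were called higher and 1 lower, or 12.5% (5.09% of all genes). The median was -0.02 log2. Foxd2, a forkhead factor gene below the median signal, was 3.88, 4.28 and 3.93 log2 against 4.26, 4.53 and 4.31 log2, a difference of -0.34 log2 with overlapping groups. Rlf, a zinc finger gene, was 6.69, 6.91 and 6.46 log2 against 6.53, 6.34 and 6.24 log2, also overlapping, with a difference of 0.32 log2. The call of Foxd2 ended without mouse 3003 (-0.26 log2), 3008 (-0.29 log2), 1027 (-0.26 log2) or 1001 (-0.36 log2), and that of Rlf without mouse 3003 (0.31 log2), 3007 (0.21 log2), 1027 (0.30 log2) or 1001 (0.25 log2). With arrays centered on their medians Rlf was not called either (0.31 log2). Rnf220 was the third. Tal1, a factor of blood and endothelial cells, differed by under 0.01 log2, and Nfyc, a subunit of the factor that binds CCAAT, by -0.09 log2.

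Of 13 members in RNA processing and protein synthesis, 1 was called, or 7.69% (5.09% of all genes), at a median of -0.08 log2. Ppie, for a cyclophilin of the spliceosome, was 5.31, 5.22 and 5.36 log2 against 5.07, 5.05 and 5.09 log2. The groups were apart by 0.23 log2 (standard error 0.09, unadjusted limma p = 0.0281, exact permutation p = 0.1), with no call without mouse 3003 (0.22 log2), 3008 (0.20 log2), 1025 (0.23 log2) or 1027 (0.22 log2). Ndc1, a nuclear pore gene, had -0.19 log2 with overlapping groups, and Ebna1bp2, of ribosome assembly, -0.12 log2 without overlap. Of 16 members listed under cytoskeleton, centrosome and cilium, 6.25% were called (5.09% of all genes). Zyg11a, listed there although its family is one of ubiquitin ligase adaptors, was called higher, and none lower. In the same group Zmynd12, at 3.70, 3.74 and 3.84 log2 against 3.67, 3.42 and 3.52 log2, did not overlap (unadjusted limma p = 0.0512, exact permutation p = 0.1), and Ccdc30 had -0.17 log2. Snord55, a small nucleolar RNA, had 0.03 log2, with a sign that turned without 2 of the mice.

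The stretch holds 2 clusters of genes that are mainly known from tissues other than liver, and their signals were low. The Skint genes, which encode skin and thymus proteins of immunoglobulin-like structure, lay 2.56 to 4.86 Mb from Mutyh at lower coordinates, had a median level of 2.04 log2 and no called member of 11. Skint6 had -0.38 log2 with a standard error of 0.19, with wild-type mouse 1025 at 2.24 log2 and the other 5 mice between 1.22 and 1.58 log2. Skint11 did not overlap, at 0.23 log2, and Skint8 had 0.22 log2 with overlap. Of 13 olfactory receptor genes, between 1.85 and 2.11 Mb at higher coordinates, 10 had a negative difference, at a median level of 3.19 log2. Among them 2 were called lower and none higher, or 15.4%. Of all genes 5.09% were called, and of those at or below the median signal 7.03%. Olfr1328 was 1.58, 1.94 and 1.78 log2 against 2.24, 2.06 and 2.52 log2, a difference of -0.50 log2 (standard error 0.14) that was called with each mouse left out. Olfr1342 was 2.56, 2.48 and 2.74 log2 against 3.33, 2.97 and 2.75 log2, a difference of -0.42 log2, with no call without mouse 3003 (-0.41 log2), 3007 (-0.37 log2) or 1025 (-0.27 log2). Gm12888, another dim gene, had 2.13, 1.93 and 1.98 log2 against 2.90, 2.24 and 2.33 log2. Its difference of -0.48 log2 was -0.27 log2 without mouse 1025, and the call ended without mouse 3007 (-0.44 log2) or 3008 (-0.46 log2). All of these called genes were below the median signal.

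Mir761, Mir30c-1 and Mir30e were microRNA genes. The mature RNAs of the miR-30 pair (RefSeq, GRCm38.p6, minus strand) are shown because both genes lie close together within Nfyc and share a seed, bases 2 to 8, given in capitals.
mmu-miR-30c-5p: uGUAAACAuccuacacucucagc
mmu-miR-30e-5p: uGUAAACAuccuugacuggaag
mmu-miR-30c-1-3p: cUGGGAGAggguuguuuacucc
mmu-miR-30e-3p: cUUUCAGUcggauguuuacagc
The 5p arms share the seed GUAAACA, and the 3p arms, with UGGGAGA and UUUCAGU, do not share theirs. The values of the array belong to the probe sets of the genes and do not separate the arms. Whether these probe sets read the mature RNAs was not tested. The probe set of Mir30c-1 was 2.94, 2.83 and 2.83 log2 in the nulls, against 2.46, 2.79 and 2.43 log2 in wild-types. Its group means of 2.87 and 2.56 log2 were below the median signal. The groups did not overlap, and the difference of 0.31 log2 (standard error 0.12, unadjusted limma p = 0.0307, exact permutation p = 0.1) was not called without mouse 3003 (0.27 log2), 3007 (0.32 log2), 3008 (0.32 log2), 1025 (0.26 log2) or 1001 (0.24 log2), nor with a robust variance trend. Mir30e ranged from 2.20 to 3.45 log2 in the nulls and from 1.89 to 3.49 log2 in wild-types, a difference of 0.03 log2. Mir761, within another member, had -0.13 log2 with overlapping groups.

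Probe sets other than those used gave no call. Of the 9 members with a second probe set, 5 had the opposite sign there by unrounded values, some of which were under 0.01 log2 in size, and 13 further probe sets named several genes of the stretch. None of these 22 probe sets had an unadjusted p under 0.05, the smallest being 0.168. Among the 19 genes that the rule left out, 1 was called, or 5.26% (5.09% of all genes). This was Cyp4a12a, of the fatty acid hydroxylase cluster, lower at -0.46 log2 with overlapping groups. The groups did not overlap in Cyp4x1 (0.15 log2) and Cdc20 (-0.19 log2), 2 of the 19 or 10.5% (9.53% of all genes). At the edges, Lrrc42 and Pabpc4 just inside had -0.11 and 0.07 log2, and Ldlrad1 and Bmp8a just outside had 0.14 and -0.16 log2.

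All 6 mice were kept. Array medians lay between 4.51 and 4.55 log2. Of 12 hepatocyte markers 11 were measured, at mean levels of 6.11 to 13.19 log2, with none called. Their summed level was 51700 to 54400 on the linear scale in MUTYH-null and 51200 to 53000 in wild-type mice. The summed level of 7 B and plasma cell markers was 510 to 2900 in MUTYH-null and 467 to 551 in wild-type mice, and that of 9 T cell markers 224 to 272 and 207 to 219. The summed level of 8 stellate cell and fibroblast markers was 2370 to 3210 and 2190 to 2880. Called higher were 2 of the 9 T cell markers and 1 each of the 7 B and plasma cell, 9 endothelial and 8 stellate cell and fibroblast markers, of which 7, 7, 5 and 7 had a positive difference. Of 8 macrophage markers 2 were called lower and 3 had a positive difference, with a median of -0.03 log2, and of 7 cell division genes and 4 cholangiocyte markers none was called. In all, 7 of 63 markers were called, beside 5.09% of all genes. The part of these cells in the differences of the members was not tested, and in whole tissue fewer cells of a type and less RNA per cell cannot be told apart.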

How the data were processed

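The authors made the log2 values by RMA, which corrects background, normalizes between arrays and summarizes probe sets, and deposited 1 column per mouse. The submitters' processing notes list Affymetrix Expression Console and, with no version for either, Transcriptome Analysis Console. A human array is named in the methods, but the probes are those of mouse genes. For arrays, precision is limited by their number, here 6. Probe sets naming exactly 1 gene were kept (23521 of 41345), each gene took its probe set with the highest mean, and Entrez IDs placed 21994 of the 22180 genes in the RefSeq gene table of GRCm38.p6, which gave positions. No build is given for the deposited values in the sources used here.

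The test was limma (version 3.58.1, lmFit and eBayes; R 4.3.3) over all genes, without covariate, and single members also by an exact permutation test. The p-values measure only the spread between these mice. The function was tested on simulated data. The members, gene groups and marker lists were chosen with earlier results of these data known. Named were the called members with the largest differences (up to 12 in each direction) that did not overlap and were above the median signal, the 6 nearest Mutyh on each side, partners in shared promoters, 3 of each group by smallest p, and the 3 with the highest signal. All other called members, and those given as neighbors or as examples without a call, were picked with their values in view. Alternative settings were leaving out dim genes, quantile normalization, centering, averaging probe sets, a robust variance trend, array weights, other windows and leaving out each mouse. The quantitative PCR, histology and other diets were not analysed here.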

Additional observations from a re-analysis of the deposited data

How the results depend on the processing

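The 20 called members kept their sign in the alternatives that refit single genes, but with dim genes left out only 12 of them had a value. With a mouse left out, 6 of the 20 were called each time (Armh1, Dio1, Echdc2, Guca2b, Olfr1328 and St3gal3) and 14 were lost at least once. Of the 6, Armh1, Guca2b and Olfr1328 were below the median signal. With each mouse left out, 14 to 22 members were called, 5 to 12 higher and 6 to 10 lower (4.59% to 5.93% of all genes called), and 41 to 54 did not overlap, where 5 values give fewer ways to overlap and 18% to 21.5% of all genes did not. The median difference was then -0.037 to -0.007 log2. With dim genes left out, 114 members remained, of which 14 were called (5 lower), or 12.3%, and 19 did not overlap, or 16.7%, against 5.02% and 9.5% of all 13162 genes left. Within 2 Mb of Mutyh, 6 of 68 members were called, or 8.82%, 3 higher and 3 lower, and 10 did not overlap, or 14.7%. Within 5 Mb 13 of 126 were called, or 10.3%, 5 of them lower. Of all genes in the main setting, 5.09% were called and 9.53% did not overlap. These windows hold fewer genes by construction. Btf3l4 turned to -0.00 log2 after quantile normalization and after centering on medians. With each mouse left out, differences lay between -0.06 and 0.07 log2 for Btf3l4, -0.09 and 0.00 for Akr1a1, -0.19 and 0.01 for Cfap57, -0.05 and 0.06 for Mfsd2a, -0.03 and 0.09 for Snord55, -0.15 and 0.02 for Tmem69, and -0.02 and 0.20 for Zswim5. Nasp was called with dim genes left out, with probe sets averaged and with array weights, and Skint11 after quantile normalization. With a mouse left out, Plk3 was called without 3007 (0.50 log2) or 1027 (0.50 log2). Without mouse 1027, Eif2b3 (-0.28 log2), Ndc1 (-0.30 log2) and Skint11 (0.29 log2) were called. Zmynd12 was called without mouse 1025 (0.29 log2) and Skint6 without mouse 1001 (-0.50 log2). No paired analysis was possible because the groups share no replicate numbers. With 3 mice per group and dim signals in 68 members, small differences could not be resolved.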
